A study of Mus musculus with 6 samples.

Results

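Mitochondrial fatty acid oxidation was followed through 9 genes of the 21448 in the deposited table, taken by name: Cpt1a, Cpt2, Slc25a20, Acadm, Acadl, Acadvl, Hadha, Hadhb and Hadh. All 9 were found in the table and all 9 had a mean value high enough to be tested. RNA came from cultured primary lymphoma B cells of the E mu-Myc transgenic strain, whose Myc transgene is driven by the immunoglobulin heavy chain enhancer and so acts in B cells, where it causes lymphoma. There were 3 libraries labelled PRDM15 KO and 3 labelled wild type (WT). Both groups carried the transgene and were grown with IL7. Per the labels' protocols, PRDM15 deletion was induced with OHT (4-hydroxytamoxifen, 50 nM) and control cells received ethanol, both for 24 hours, with collection 3 days later. The labels give the genotype of each library but not which of the agents it received. Because OHT is the means of deletion, effects of OHT itself and of the deletion cannot be told apart. The recombinase that OHT acts on and the mice behind each replicate number are not described in the sources used here.

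Long-chain fatty acids reach the mitochondrial matrix as carnitine esters. CPT1 on the outer membrane forms the ester, the carrier encoded by Slc25a20 moves it across the inner membrane, and CPT2 on the inner membrane turns it back into an acyl-CoA. CPT1 is inhibited by malonyl-CoA, the building block of fatty acid synthesis, and is regarded as the control point of the pathway. Inside, acyl-CoA dehydrogenases, a hydratase, a hydroxyacyl-CoA dehydrogenase and a thiolase shorten the chain in repeated rounds and pass electrons to the respiratory chain.

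The promoters of Cpt1a and Slc25a20 are shown because these members differed most between the groups, and that of Hadhb because its window overlaps that of Hadha. Sequences are the 250 bases before each annotated start, from RefSeq on GRCm38.p6, which is not the build named in the submitters' processing notes (mm9). All 9 members matched an entry. Capitals mark the Sp1 box GGGCGG, the nuclear receptor half-site AGGTCA and the sequence CCAAT, each read on both strands and none overlapping another here. The windows are chr19:3323051-3323300 on the plus strand for Cpt1a, chr9:108661886-108662135 on the plus strand for Slc25a20 and chr5:30155003-30155252 on the plus strand for Hadhb.
Cpt1a: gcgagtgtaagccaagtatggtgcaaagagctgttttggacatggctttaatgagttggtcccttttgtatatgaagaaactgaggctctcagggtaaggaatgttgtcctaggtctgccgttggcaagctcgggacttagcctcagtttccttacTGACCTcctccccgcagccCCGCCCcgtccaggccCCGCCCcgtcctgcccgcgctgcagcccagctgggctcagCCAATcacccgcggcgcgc
Slc25a20: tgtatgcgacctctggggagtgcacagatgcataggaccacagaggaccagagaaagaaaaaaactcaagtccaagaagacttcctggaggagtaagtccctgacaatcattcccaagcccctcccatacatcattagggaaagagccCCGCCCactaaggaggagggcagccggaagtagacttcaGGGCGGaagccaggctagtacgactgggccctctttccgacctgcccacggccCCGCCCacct
Hadhb: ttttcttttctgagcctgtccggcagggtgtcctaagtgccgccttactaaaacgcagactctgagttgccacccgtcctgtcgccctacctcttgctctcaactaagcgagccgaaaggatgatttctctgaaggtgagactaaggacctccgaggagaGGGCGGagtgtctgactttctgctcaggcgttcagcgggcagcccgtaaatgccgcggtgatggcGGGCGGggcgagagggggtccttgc

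Cpt1a and Slc25a20 had 2 and 3 copies of GGGCGG, the Sp1 box. It was in this window in 7 of the 9 members, against 32.7% of all 32851 promoter windows of the same length. GC content of the members' windows ran from 49.6% (Acadvl) to 68.0% (Acadl), beside a median of 52.4% over all windows (quartiles 45.2% and 61.2%). The part of GC content in the motif counts was not tested. AGGTCA, the half-site of nuclear receptors such as the PPARs, was in the windows of Cpt1a, Acadm and Acadvl, 3 of 9 members, against 14.02% of all windows. The CCAAT box was in 2 of 9, Cpt1a and Hadh, against 33.8% of all windows. Neither the DR1 element, a pair of AGGTCA half-sites 1 base apart (0 of 9, 0.0335% of all windows), nor the MYC E-box CACGTG (0 of 9, 6.02%) was found, which says only that these letters are not in these windows. Hadha and Hadhb encode the α and β subunits of the mitochondrial trifunctional protein. They are read away from each other from starts 272 bases apart, so their windows overlap and share letters. The only GGGCGG of Hadha lies in the shared stretch and is 1 of the 2 of Hadhb, so it is counted for both.

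Each value is a gene's reads scaled by library size, on the scale known as CPM, with no division by gene length. Libraries held 28852951 to 47255421 reads assigned to genes. The labels do not say whether the same replicate number marks the same mouse. Libraries of the same number deviated together from their group means across genes (r = 0.73, 0.73 and 0.84), so each comparison is given without the number and with it as a block (unpaired and paired limma, Benjamini-Hochberg adjustment over all 10533 tested genes, two-sided, threshold 0.05). Log2 changes are of the value plus 1, labelled KO minus WT. Prdm15 itself was at 40.2, 40.9 and 39.2 in the libraries labelled KO 1, 2 and 3 and at 29.2, 47.3 and 41.3 in WT 1, 2 and 3. These whole-gene sums overlap between the groups and cannot check the loss of part of a gene, and all directions below rest on the labels.

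The B cell label was checked on its markers: Cd79b, a signalling subunit of the B cell receptor, averaged 472 ± 40.1 in libraries labelled KO and 458 ± 64.3 in WT libraries (SD, n = 3 each). Over the 12 B lineage markers, not all as level as Cd79b, log2 changes ran from -1.15 to 1.64 with a median of -0.05. Limma called 0 of them with or without the pairs. In all pairs 1 was higher and 3 were lower, beside 16.7% and 29.9% of all tested genes. For 1 marker all libraries labelled KO lay above all WT libraries, and for 0 below, beside 3.21% and 6.29% of all tested genes. Their summed level was 2092, 2678 and 2600 in libraries labelled KO 1, 2 and 3 and 2121, 2700 and 2838 in WT 1, 2 and 3. Markers of T and NK cells summed to 8.02, 13.7 and 2.06 in libraries labelled KO 1, 2 and 3 and to 5.18, 1.003 and 1.13 in WT 1, 2 and 3. Erythroid markers summed to at most 1.504 in any library. Stromal and endothelial markers summed to 64.2, 56.8 and 102 in libraries labelled KO 1, 2 and 3 and to 53.0, 52.1 and 63.3 in WT 1, 2 and 3. Myeloid markers set libraries labelled KO 2 and 3 apart. The summed level of 20 such markers was 236, 2846 and 1528 in libraries labelled KO 1, 2 and 3 and 272, 339 and 278 in WT 1, 2 and 3. Lyz2, the lysozyme of macrophages and the most abundant of them, was at 10.7, 1471 and 820 in libraries labelled KO 1, 2 and 3 and at 20.4, 124 and 86.0 in WT 1, 2 and 3. Ctss, cathepsin S, which B cells also express, was at 190.2, 344 and 197 in libraries labelled KO and at 184, 90.3 and 98.7 in WT. None of the 20 was at 0 in all libraries, and all 16 tested ones were higher in pairs 2 and 3, against 4 in pair 1. Over all 10533 tested genes, 4249, 5237 and 4112 were higher in pairs 1, 2 and 3. The filter for testing is a mean over all libraries, so high values in libraries labelled KO 2 and 3 help a marker to pass it. In bulk RNA, fewer cells of a type and less RNA per cell cannot be told apart.

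Cpt1a, the CPT1 isoform of liver and of most tissues outside muscle and brain, rose in the libraries labelled KO. It was at 78.8, 95.7 and 86.8 in libraries labelled KO 1, 2 and 3, against 45.7, 62.5 and 50.4 in WT 1, 2 and 3. Every library labelled KO lay above every WT library, and the ratio within pairs 1, 2 and 3 was 1.73, 1.53 and 1.72. The log2 change was 0.72 ± 0.061 (SE, paired limma, adjusted p = 0.0313, 95% interval 0.56 to 0.87). Without the replicate number, as the design had set, it did not pass (SE 0.143, 95% interval 0.37 to 1.07, limma adjusted p = 0.502).

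Among the 9 members, Cpt1a was the only one called by paired limma, where 0.133% of all tested genes were called higher and 0.741% lower (14 and 78 genes). Under quantile normalization with the pairs the split was 33 higher and 96 lower. Unpaired limma called 0 members, with 2 at an unadjusted p under 0.05, beside 0.00949% of all genes called (1 gene) and 4.06% at that unadjusted level (21.0% in the paired fit). By p, Cpt1a stood at place 19 of 10533 in the paired fit and 47 in the unpaired fit. On the reads recovered from the values, edgeR's quasi-likelihood test called it with the pairs (adjusted p = 0.0445) and not without them (0.308), while DESeq2 called it both ways (2.88e-12 with the pairs, 0.000114 without). Paired edgeR called 0.0475% of all genes higher and 0.323% lower (20.6% at an unadjusted p under 0.05). DESeq2 called 0.294% higher and 0.750% lower without the pairs (1.04% in all, 7.75% unadjusted) and 7.01% in all with them (18.3% unadjusted). The paired limma call was kept without pair 1 (log2 change 0.69, adjusted p = 0.00205) and lost without pair 2 (0.77, 0.149) or pair 3 (0.69, 0.170). Of all 10533 tested genes, the fit without pair 1 called 840, and those without pair 2 or pair 3 called 0. The log2 change of Cpt1a was 0.77, 0.61 and 0.77 in pairs 1, 2 and 3, beside medians of -0.56, 2.76 and 2.10 for the tested myeloid markers. The part of the myeloid transcripts in the rise was not tested. Without both libraries labelled KO 2 and 3, and ignoring the pairs, the log2 change was 0.58 (limma adjusted p = 0.941), in a fit that takes the lone library labelled KO to vary like the WT libraries.

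Slc25a20, the carnitine-acylcarnitine carrier and the next step of the route, differed in the same direction without passing in limma. It was at 14.3, 23.4 and 19.2 in libraries labelled KO 1, 2 and 3, against 6.14, 11.1 and 12.5 in WT 1, 2 and 3. The groups did not overlap, and the ratio within pairs was 2.33, 2.10 and 1.54. Its log2 change of 0.90 was larger than that of Cpt1a but less even (SE 0.127, 95% interval 0.57 to 1.22 in the paired fit, limma adjusted p = 0.0569, and 0.9998 unpaired). With the pairs, edgeR gave an adjusted p = 0.0775 and DESeq2 gave 4.06e-05. Paired limma passed it under quantile normalization, chosen after seeing the data (adjusted p = 0.0398), and without pair 1 (0.0108). It did not pass in paired limma with equal totals (adjusted p = 0.0620), without pair 2 (0.272) or without pair 3 (0.159). Unpaired DESeq2 did not call it (adjusted p = 0.169). Without both libraries labelled KO 2 and 3, and ignoring the pairs, its log2 change was 0.54 ± 0.447 (SE, limma adjusted p = 0.941). The part of the myeloid transcripts in this difference was not tested either.

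Cpt2, the inner-membrane transferase that completes the shuttle, lay on the other side of 0. It was at 10.7, 11.4 and 11.2 in libraries labelled KO 1, 2 and 3, against 14.9, 11.9 and 12.8 in WT 1, 2 and 3. The groups did not overlap, yet the gap in pair 2 was small, and the gene did not pass (log2 change -0.22, paired 95% interval -0.50 to 0.06, limma adjusted p = 0.314). Of the 9 members, 2 had all libraries labelled KO above all WT libraries and 1 had them below, against 3.21% and 6.29% of all tested genes.

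**Figure D1:**
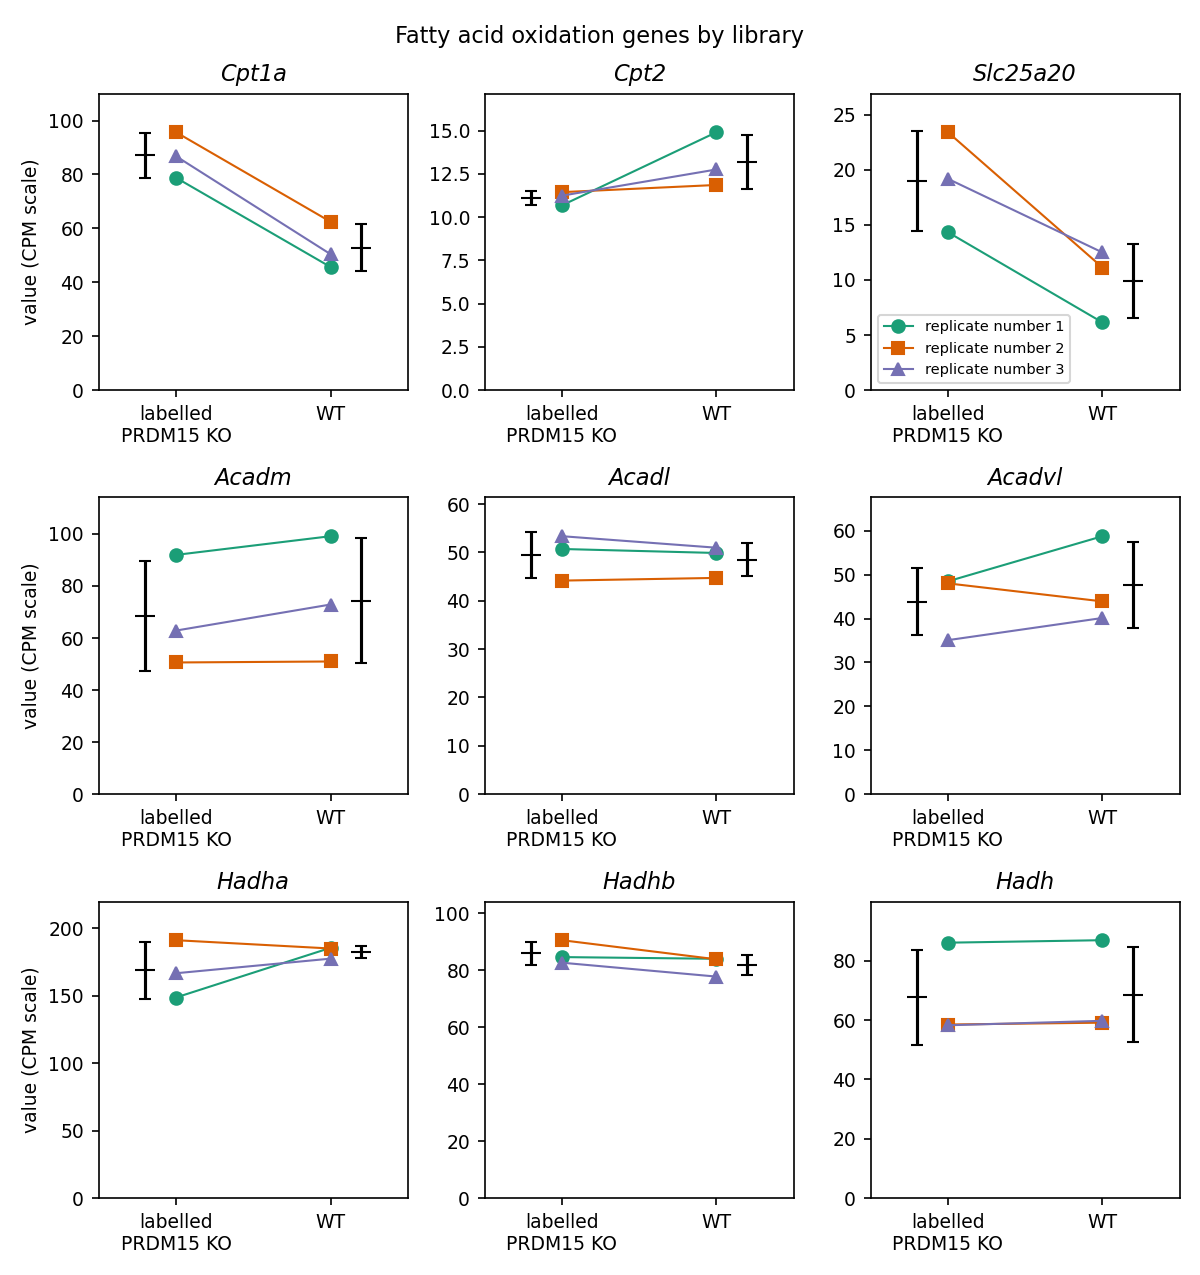
Value on the CPM scale (vertical axes from 0) of each of the 9 genes in the libraries labelled PRDM15 KO and in the WT libraries, where a line connects each pair and black marks give the group mean with its SD (n = 3). Cpt1a lies at 78.8 to 95.7 in the libraries labelled KO and at 45.7 to 62.5 in WT, while the lines of Acadl, Hadhb and Hadh are nearly level.

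The acyl-CoA dehydrogenases, which carry out the first oxidation of each round and differ in the chain length they take, did not pass. Acadl, the long-chain enzyme, was at 50.7, 44.2 and 53.4 in libraries labelled KO 1, 2 and 3, against 49.9, 44.7 and 51.0 in WT 1, 2 and 3. Its groups overlapped throughout, and the paired 95% interval of its log2 change was -0.12 to 0.16, which leaves out a change of the size of Cpt1a's. Acadm, the medium-chain enzyme whose loss causes the commonest human defect of this pathway, was at 91.9, 50.6 and 62.9 in libraries labelled KO, against 99.1, 51.0 and 72.9 in WT. Replicate number 1 was high in both groups, so the spread between numbers was much wider than the difference within them (log2 change -0.11, paired interval -0.27 to 0.05). Acadvl, the very-long-chain enzyme on the inner membrane, was at 48.5, 48.0 and 35.1 in libraries labelled KO, against 58.7, 43.9 and 40.1 in WT. It was lower in pairs 1 and 3 and higher in pair 2 (log2 change -0.11, paired interval -0.35 to 0.12). In the GENCODE M21 annotation its exons overlap those of Dvl2 on the other strand. The strand setting of the counting is not given in the sources used here.

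The later steps did not pass either. Hadha, the α subunit that holds the hydratase and the long-chain hydroxyacyl-CoA dehydrogenase, was at 149, 191 and 167 in libraries labelled KO 1, 2 and 3, against 185, 185 and 177 in WT 1, 2 and 3. Only the first of these pairs showed a clear gap (log2 change -0.32 in pair 1, 0.05 in pair 2 and -0.09 in pair 3). Exons of Hadha overlap those of Garem2 on the other strand in the same annotation. Hadhb, the β subunit with the thiolase, was at 84.6, 90.5 and 82.6 in libraries labelled KO, against 84.0, 83.8 and 77.7 in WT. It was slightly higher in each pair, within a paired interval of -0.06 to 0.20. Hadh, the short-chain hydroxyacyl-CoA dehydrogenase of the matrix, was at 86.1, 58.5 and 58.3 in libraries labelled KO, against 86.9, 59.1 and 59.8 in WT. The values of each pair nearly coincided (log2 change -0.02, paired interval -0.15 to 0.11), and replicate number 1 was again high in both groups.

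**Figure D2:**
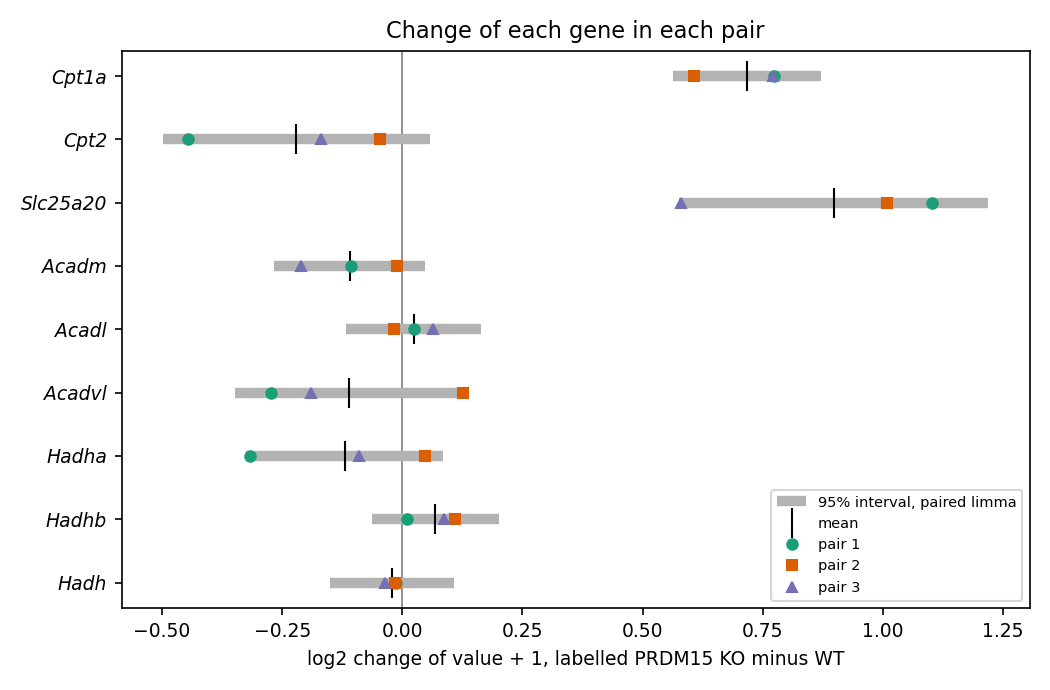
Log2 change of value plus 1, labelled PRDM15 KO minus WT (horizontal axis), for each of the 9 genes, with a symbol per pair, a tick for the mean and a grey bar for the 95% interval of paired limma. The intervals of Cpt1a (0.56 to 0.87) and Slc25a20 (0.57 to 1.22) lie above 0 and above the intervals of the other 7 genes, all of which cross 0.

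Over the 9 members the median log2 change was -0.02 (0.03 with libraries scaled to equal totals), beside -0.03 over all tested genes (0.02 with equal totals). By pair the median of the members was -0.01, 0.05 and -0.04, beside -0.05, -0.00 and -0.04 over all tested genes. Of the members, 3 were higher in all pairs (Cpt1a, Slc25a20 and Hadhb) and 3 were lower in all pairs (Cpt2, Acadm and Hadh), beside 16.7% and 29.9% of all tested genes.

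Divided by the length of annotated exons (GENCODE M21, GRCm38, used for length only), the enzymes of the oxidation rounds averaged above the shuttle genes. In CPM-scale values per kb, Acadl averaged 24.7 ± 2.36 in libraries labelled KO and 24.2 ± 1.66 in WT libraries, and Hadha 19.3 ± 2.44 and 20.9 ± 0.514. Acadm and Acadvl followed at 17.5 ± 5.43 and 16.3 ± 2.83 in libraries labelled KO and 19.0 ± 6.16 and 17.7 ± 3.67 in WT. Next came Hadh (13.6 ± 3.21 and 13.8 ± 3.19) and Hadhb (13.0 ± 0.623 and 12.4 ± 0.539). From Hadha down to Hadhb, neighbours in this order did not differ beyond their spread.

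Cpt1a stood below these, at 11.4 ± 1.10 in libraries labelled KO and 6.92 ± 1.13 in WT libraries per kb, so its gap to Hadhb was narrower in libraries labelled KO. Cpt2 was at 4.65 ± 0.166 and 5.51 ± 0.655 per kb, and Slc25a20 was lowest at 3.92 ± 0.937 and 2.05 ± 0.690. The order of the 9 was the same in both groups. The ratio of Cpt1a to Cpt2 per kb was 2.31, 2.62 and 2.42 in libraries labelled KO 1, 2 and 3. In WT 1, 2 and 3 it was 0.959, 1.65 and 1.24. This gap follows from the values of the 2 genes given above. The ratio of Cpt1a to Slc25a20 overlapped between the groups, at 3.48, 2.59 and 2.87 in libraries labelled KO and 4.71, 3.56 and 2.56 in WT. The other CPT1 isoforms were hardly present. Cpt1b, the muscle form, averaged 0.368 ± 0.0594 in libraries labelled KO and 0.310 ± 0.0687 in WT on the CPM scale, and Cpt1c, the brain form, 0.328 ± 0.244 and 0.335 ± 0.219. Both were below the mean of 1 required for testing.

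**Figure D3:**
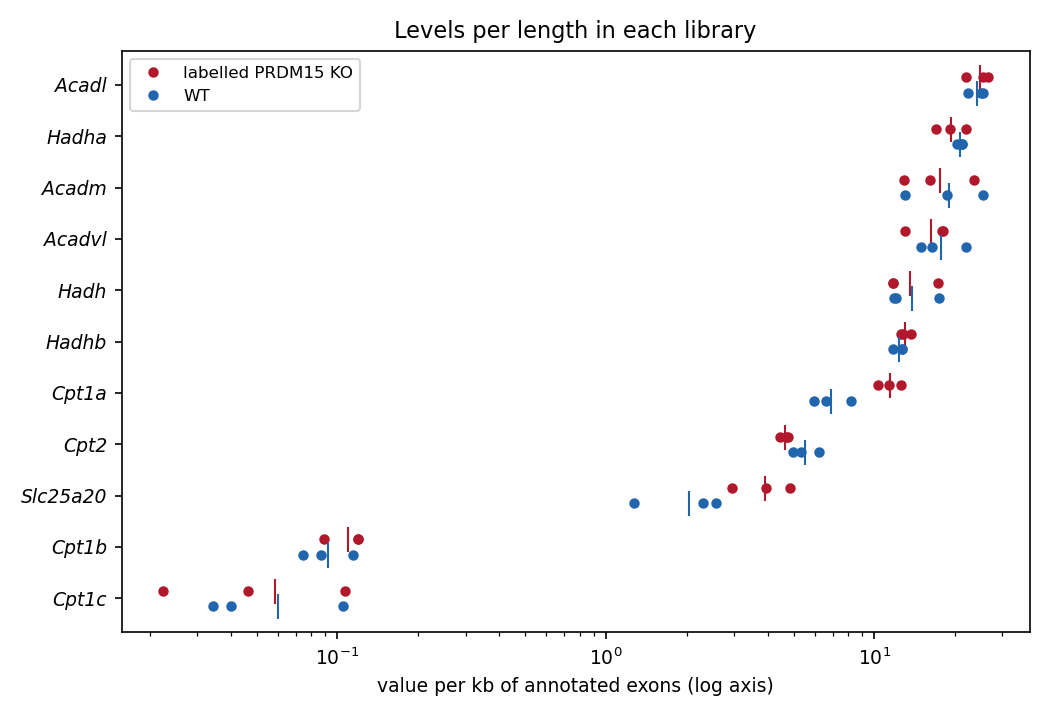
CPM-scale value per kb of annotated exons (horizontal log axis) of the 9 genes and of the CPT1 isoforms Cpt1b and Cpt1c in each library, labelled PRDM15 KO above WT in each row, with ticks for the group means. Cpt1a averages 11.4 in the libraries labelled KO and 6.92 in WT, while Cpt1b and Cpt1c lie far below the other genes.

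Genes around the pathway were read from 7 lists: other carnitine genes, other mitochondrial oxidation enzymes, peroxisomal oxidation, malonyl-CoA turnover with AMPK, PPAR receptors with coactivators, PPAR targets and lipolysis. Of their 74 tested genes, paired limma called 0, with 15 at an unadjusted p under 0.05, and unpaired limma called 0, with 1 at that level. Over all tested genes 21.0% stood at that level in paired limma, 20.6% in paired edgeR and 4.06% in unpaired limma, so the paired counts of these lists were near the background. With the pairs, edgeR called 0, also with 15 at that level. DESeq2 with the pairs called 5, namely Hsd17b4, Mgll, Pnpla2 and Rxra as higher and Ucp2 as lower. Rxra reached the mean required for testing only through libraries labelled KO 2 and 3, where it was high. Mgll was higher in pairs 2 and 3 but not in pair 1. DESeq2 with the pairs called 3.02% of all tested genes higher and 3.99% lower.

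Within mitochondria, the other 17 oxidation enzymes had a median log2 change of -0.06. In all pairs 2 were higher and 5 were lower, beside 16.7% and 29.9% of all tested genes. For 0 of the 17 all libraries labelled KO lay above all WT libraries, and for 3 below, beside 3.21% and 6.29% of all tested genes. Hsd17b10, a matrix hydroxyacyl-CoA dehydrogenase, averaged 28.0 ± 0.608 in libraries labelled KO and 34.5 ± 4.90 in WT (log2 change -0.28, paired limma adjusted p = 0.181). Echs1, the short-chain enoyl-CoA hydratase, averaged 32.5 ± 2.24 and 37.3 ± 0.0900 (-0.19, 0.213). Etfa, a subunit of the flavoprotein that takes electrons from the dehydrogenases, averaged 59.9 ± 4.62 and 67.2 ± 5.06 (-0.16, 0.186). Acad9, an acyl-CoA dehydrogenase that also serves complex I assembly, averaged 72.9 ± 3.16 and 76.8 ± 1.55. None of them passed.

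The other carnitine genes gave no call among 5 tested. Slc22a5, the plasma membrane carnitine transporter, averaged 12.5 ± 3.56 in libraries labelled KO and 14.8 ± 3.80 in WT (log2 change -0.24, lower in all pairs, paired limma adjusted p = 0.203). Crat, the acetyl-carnitine transferase of the matrix, averaged 18.7 ± 6.61 and 16.3 ± 4.52, Crot, its peroxisomal relative for medium chains, 26.4 ± 2.16 and 26.4 ± 2.80, and Aldh9a1, an enzyme of carnitine synthesis, 99.8 ± 4.18 and 104 ± 4.19.

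Peroxisomal oxidation, which shortens very long and branched chains, had a median of -0.01 over 13 tested genes. Hsd17b4, the bifunctional enzyme of that pathway, was at 55.7, 121 and 75.7 in libraries labelled KO 1, 2 and 3, against 47.5, 100.3 and 59.9 in WT 1, 2 and 3. It was higher within each pair by a similar ratio although the groups overlapped (log2 change 0.28, adjusted p = 0.104 in paired limma and 0.00703 in paired DESeq2). Pecr, a trans-enoyl-CoA reductase, averaged 5.53 ± 1.19 in libraries labelled KO and 7.16 ± 1.53 in WT (-0.32, 0.202), and Scp2, the sterol carrier protein with a thiolase, 66.2 ± 7.36 and 66.6 ± 1.49.

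On the side of the CPT1 inhibitor malonyl-CoA, 11 genes had a median of -0.10 and none was called by limma, edgeR or DESeq2. Acaca, the acetyl-CoA carboxylase that makes malonyl-CoA, was at 145, 187 and 168 in libraries labelled KO 1, 2 and 3, against 159, 222 and 189 in WT 1, 2 and 3. It was lower in each pair (log2 change -0.18, paired limma adjusted p = 0.159). Mlycd, the decarboxylase that removes malonyl-CoA, averaged 6.38 ± 2.04 and 7.59 ± 1.29 (-0.25, 0.340). The AMPK subunit gene Prkag2 averaged 31.8 ± 7.98 and 28.2 ± 5.89 (0.16, 0.256), and Stk11, which encodes the AMPK-activating kinase LKB1, 94.7 ± 1.94 and 102 ± 10.2.

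PPAR receptors and their partners had a median of -0.07 over 13 tested genes. None passed in limma or edgeR, and paired DESeq2 called 1, Rxra. Ppara, the PPAR that drives oxidation genes in liver, was under 1 in every library, at 0.532 or less. Pparg was at 0.0665, 4.89 and 2.04 in libraries labelled KO 1, 2 and 3, against 0.214, 0.226 and 0.150 in WT 1, 2 and 3. Its partner Rxra was at 0.632, 11.4 and 5.76 in libraries labelled KO, against 0.561, 0.827 and 0.685 in WT. Both were high in libraries labelled KO 2 and 3, those with more myeloid transcripts, and under 1 in every other library. They reached the mean of 1 required for testing only through libraries labelled KO 2 and 3. Neither passed in limma (paired adjusted p = 0.257 for Pparg and 0.193 for Rxra). Paired DESeq2 gave an adjusted p of 0.112 for Pparg and 0.00641 for Rxra. Pprc1, a relative of the coactivator PGC-1, averaged 53.2 ± 10.1 and 61.8 ± 9.97 (log2 change -0.22, 0.143). The corepressor Ncor1 averaged 292 ± 41.0 and 289 ± 45.1, and the Mediator subunit Med1 150.2 ± 8.60 and 160.1 ± 12.9.

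Of the PPAR targets, Plin2, a lipid droplet coat protein, was at 20.5, 128 and 87.7 in libraries labelled KO 1, 2 and 3, against 28.5, 29.8 and 39.3 in WT 1, 2 and 3. Fabp5, a fatty acid binding protein, was at 393, 332 and 235 in libraries labelled KO, against 1684, 451 and 275 in WT, and WT 1 stood far above the rest (log2 change -0.92, paired limma adjusted p = 0.244). Ucp2, a carrier of the inner mitochondrial membrane, was at 377, 337 and 298 in libraries labelled KO, against 444, 463 and 366 in WT. It was lower in each pair (-0.33, 0.103), and paired DESeq2 called it (adjusted p = 0.00333).

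Among lipases, Pnpla2, which encodes the triglyceride lipase ATGL, was at 50.3, 43.0 and 37.1 in libraries labelled KO 1, 2 and 3, against 39.1, 34.7 and 28.4 in WT 1, 2 and 3. It was higher in each pair by a near-equal amount, also in pair 1 (log2 change 0.36, 0.30 and 0.37), without passing in limma or edgeR (paired adjusted p = 0.0799 in limma and 0.0775 in edgeR). Paired DESeq2 called it (adjusted p = 0.00775). Lpl, the secreted lipoprotein lipase, was at 4.62, 145 and 66.5 in libraries labelled KO, against 13.4, 10.9 and 5.93 in WT. Lipa, the lysosomal acid lipase, was at 16.5, 151 and 86.9 in libraries labelled KO, against 15.4, 24.1 and 20.9 in WT, and Mgll, the monoglyceride lipase, at 0.998, 19.9 and 9.82 against 1.12, 5.26 and 2.72. For Pnpla2, Lpl, Lipa, Mgll, Plin2, Pparg and Rxra the part of the myeloid transcripts in the difference was not tested. The median of the 7 lipolysis genes was -0.09, 1.66 and 0.83 in pairs 1, 2 and 3, beside -0.56, 2.76 and 2.10 for the 16 tested myeloid markers.

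**Figure D4:**
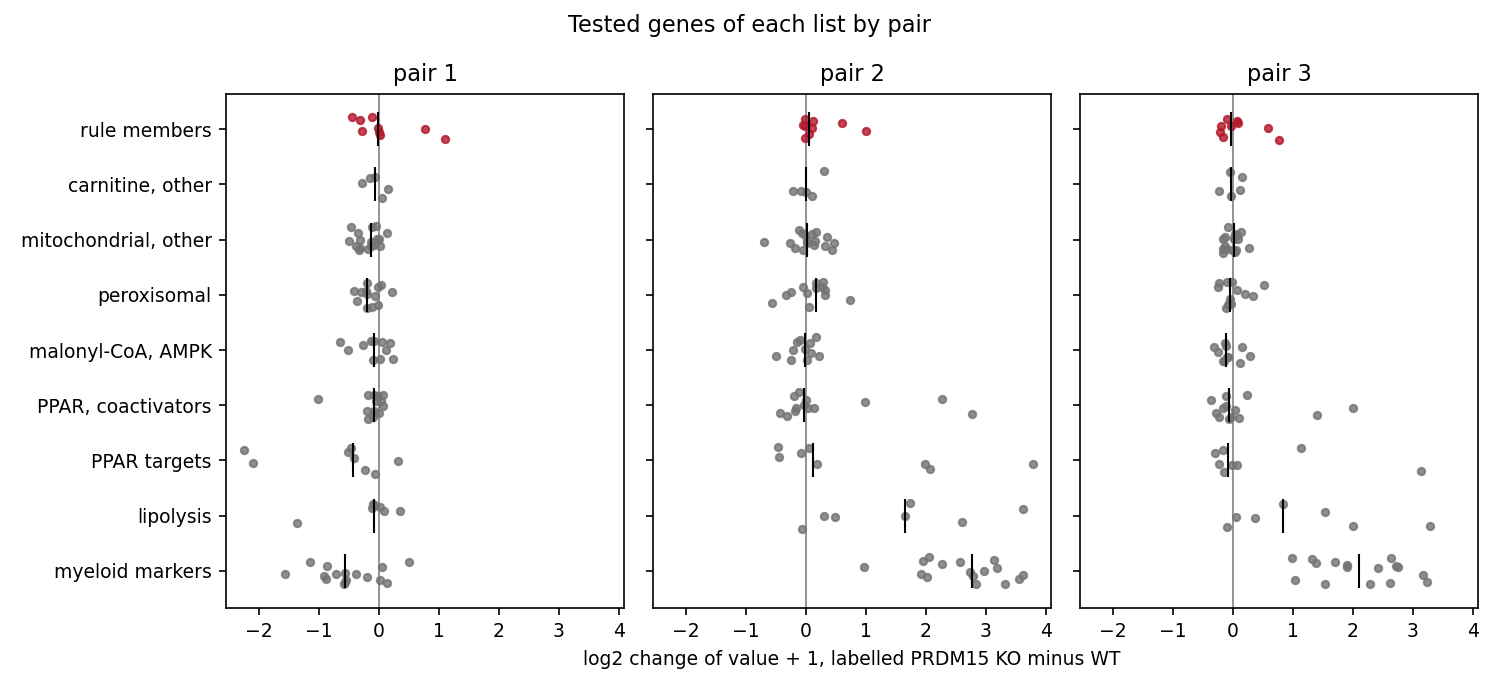
Log2 change of value plus 1, labelled PRDM15 KO minus WT (horizontal axis), of every tested gene of each list in pairs 1, 2 and 3, the 9 genes taken by name in red, with a tick for the list's median and random vertical scatter. Myeloid markers have medians of -0.56, 2.76 and 2.10, while the median of the 9 stays at -0.01, 0.05 and -0.04.

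**Figure D5:**
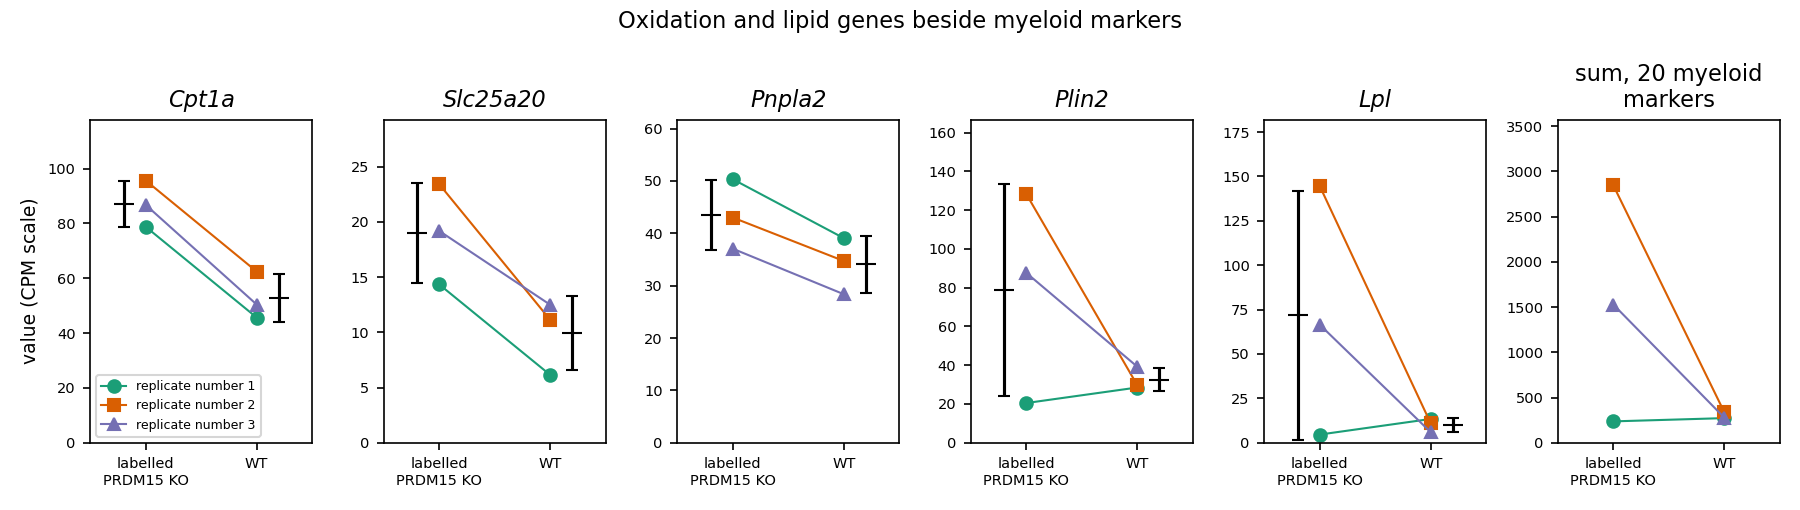
Value on the CPM scale (vertical axes from 0) of Cpt1a, Slc25a20, Pnpla2, Plin2 and Lpl and the summed value of 20 myeloid markers, in libraries labelled PRDM15 KO and in WT libraries, where a line connects each pair and, for the genes, black marks give the group mean with its SD (n = 3). Cpt1a, Slc25a20 and Pnpla2 are higher in all 3 pairs, whereas Plin2, Lpl and the myeloid sum are higher in pairs 2 and 3 and lower in pair 1.

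Over the 6 libraries, the tested genes whose log2 values followed Cpt1a most closely were Vps37a (Pearson r = 0.996), Fam118b (0.987), Alpl (0.982), Prkx (0.972) and Fcrl1 (0.957). These are given as a description over 6 points that share their library with Cpt1a. Vps37a, a subunit of the ESCRT-I sorting complex, averaged 31.3 ± 1.43 in libraries labelled KO and 25.1 ± 1.63 in WT. Alpl, tissue-nonspecific alkaline phosphatase, averaged 256 ± 6.14 and 194 ± 15.6. Among the members, Slc25a20 (r = 0.906) was at place 37 of the 10532 other genes, Hadhb (0.625) at place 940 and Cpt2 (-0.852) at place 10307.

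The genes that ran most opposite to Cpt1a were Zdhhc6, a palmitoyltransferase (r = -0.993), and Acly (-0.988). Acly, ATP citrate lyase, supplies cytosolic acetyl-CoA, the precursor of malonyl-CoA. It was at 638, 582 and 604 in libraries labelled KO 1, 2 and 3, against 851, 721 and 758 in WT 1, 2 and 3. Genes taken for running with or against Cpt1a differ between the groups by that choice, so their values are given as a description with no test.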

How the data were processed

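Total RNA of 6 samples was made into directional libraries, per the labels' protocols. Per the submitters' processing notes, the tools were edgeR, HTSeq, STAR 2.4.2a and CASAVA and the build was mm9. Their roles are not stated. The deposited table, named FPKM, holds a signal: dividing a library's values by the worth of 1 read gave whole reads for 100% of values (tolerance 0.01 reads), so the values are scaled read counts without division by length. The sources used here give neither annotation nor strand setting.

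Genes with a mean of at least 1 were tested (10533 of 21448). The design had set limma on log2(value + 1) with a trended prior, without the replicate number, and it was kept for this unit. Limma with the replicate block, and edgeR and DESeq2 on the recovered reads, were alternatives. Same-numbered libraries deviated together (r = 0.73 to 0.84 over tested genes), with 3 of 3 pairs over 0.1, and on that ground same-numbered libraries are treated as pairs. A gene is said to have risen where either limma fit gave an adjusted p under 0.05, a looser rule than the unpaired fit alone. No 2 libraries agreed within counting noise (chi-square per degree of freedom at least 62.6). The design text speaks of biological replicates without naming mice, so p-values cover only the variation among these libraries.

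The members and lists were chosen with earlier results of these data known. Genes named from a list are those called, up to 3 with the smallest paired p and the 2 with the highest mean (the last also for marker lists); from the genes like Cpt1a, the 5 with the highest and the 2 with the lowest r, clone and predicted names left out. Ppara, Cpt1b and Cpt1c fall outside that rule and were chosen after their values were seen. Some genes that the rule names are not reported here. Fits were tested on simulated data drawn with no difference between replicate numbers, so that test cannot judge the paired against the unpaired fits. The software was Python 3.11.15 with matplotlib 3.10.9, and limma 3.58.1, DESeq2 1.42.0 and edgeR 4.0.16 under R 4.3.3.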

Additional observations from a re-analysis of the deposited data

How the results depend on the processing

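Cpt1a was higher in the libraries labelled KO under all 23 alternatives, and Slc25a20, Cpt2, Hadha and Hadhb also kept their direction in each. With the replicate block, Cpt1a passed in limma (log2 change 0.72), with equal totals (0.77), with quantile normalization (0.74), in edgeR (0.75) and in DESeq2 (0.75), and it passed in DESeq2 without the block (0.74). The equal-total and quantile fits with the block were chosen after seeing the data. Leaving out 1 library gave 0.62 to 0.84 for Cpt1a and leaving out 1 pair 0.69 to 0.77. The number of members called, 0 in unpaired limma, was 1 with the block in limma, with equal totals and in edgeR and in unpaired DESeq2, and 2 with the block under quantile normalization and in DESeq2. It was 0 to 2 with a pair left out, the 2 without pair 1. The count over all genes was 1 in unpaired limma. With the block it was 92, 81 with equal totals, 129 with quantile normalization, 39 in edgeR and 738 in DESeq2. It was 110 in unpaired DESeq2, 2 with a mean of at least 5, and 0 in edgeR, with quantile normalization, with a pseudocount of 0.1 or 5, without a filter and without both libraries labelled KO 2 and 3. It was 0 with any library left out and 0 to 840 with a pair left out. The median of the 9 members was 0.033 with equal totals, with or without the block, 0.064 without both libraries labelled KO 2 and 3, and -0.11 to 0.088 with 1 library left out. Changes near 0 turned sign. Hadh was at 0.033 with equal totals, with or without the block, 0.0072 in edgeR, 0.0066 in DESeq2, 0.0029 and 0.0025 in both with the block, and 0.35 without both libraries labelled KO 2 and 3, where Acadm was at 0.35 and Acadvl at 0.045. With 1 library left out, Hadh ranged over -0.21 to 0.16, Acadm over -0.35 to 0.12, Acadvl over -0.22 to 0.047 and Acadl over -0.033 to 0.10. The cause was not tested.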
